A study of Mus musculus with 10 samples.

Results

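Neurotrophin signalling was examined through 6 genes, the ligands Bdnf and Ntf3 and the receptors Ntrk2, Ntrk3, Ngfr and Sort1, in the transcriptomes of 10 single inspiratory neurons of the mouse preBötzinger Complex (preBötC). The genes were chosen by name for their roles, with earlier results of these data known, and all 6 were found among the 55367 genes listed. The contents of each neuron were drawn into the patch pipette after recording in a brainstem slice, and each sample is therefore 1 neuron.

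Recordings were made at postnatal days 0 to 3 (P0 to P3), without a drug or genetic treatment under comparison. The 4 Type-1 neurons were sample 4 (P3) from a CD-1 mouse, labelled WT, and samples 5 (P0), 6 (P3) and 7 (P3) from Dbx1;Ai148 mice. The only Type-2 neuron was sample 1, from a Dbx1;Ai148 mouse at P0. Samples 2 (P2), 3 (P0), 8 (P0), 9 (P2) and 10 (P1) were 5 neurons of Unknown type, all from CD-1 mice. In Dbx1;Ai148 mice, Cre recombinase under the Dbx1 promoter switches on the calcium indicator GCaMP6f from the Ai148 allele in cells of the Dbx1 lineage, on a C57Bl/6J or mixed C57Bl/6J;CD1 background. CD-1 mice carry no such reporter, so the lineage of their neurons is not labelled. Type, mouse line and age overlap and cannot be told apart. The labels name no animal, no 2 neurons are known to be replicates, and values are given without a test.

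Neurotrophins are secreted as precursors that are cleaved to mature dimers. Mature BDNF and neurotrophin 4 signal through TrkB, the product of Ntrk2, and neurotrophin 3 signals chiefly through TrkC, the product of Ntrk3. The precursors bind a complex of the p75 receptor, encoded by Ngfr, and sortilin, encoded by Sort1, which also sorts BDNF inside the cell. In the brainstem, BDNF and TrkB are known for their part in the maturation and plasticity of breathing around birth.

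Between 21392146 and 36629393 fragments were counted on genes per library, and from 5055 to 9307 genes reached 1 FPKM (fragments per kilobase of gene length and per 1000000 counted fragments). A count of 0 allows up to 3 fragments, which covers counting error only because the libraries carry no molecular identifiers. Every list of cell type markers was read beside the genes. Sample 4 stood apart, with a mean log2(FPKM + 1) of 2.10 over the neuron markers against 4.51 to 7.58 in the others. All 8 microglia markers were at 1 FPKM or more in samples 4 and 2, with means of 9.89 and 7.14, and 0 to 7 of them in the other neurons. Samples 1 to 4, whose cDNA concentration was the lowest by the study's account, held 5055 to 6795 genes at 1 FPKM and 0 or 1 of the 6 examined, against 6632 to 9307 genes and 1 to 5 in samples 5 to 10. They held 4 of the 5 zeros of Bdnf, all 3 of Ngfr and 2 of the 3 of Sort1, and the part of library quality in those zeros was not tested. Fragments of genes nearly private to 1 library also appeared in others, at a median rate of 0.00707% and at most 0.157%. These rates would count any real low expression of those genes as transfer between libraries. A number of fragments expected from other libraries at these rates is given beside low counts. Of the 60 values of the 6 genes, 18 were at 1 FPKM or more, 21 had no fragment and 21 were low with fragments. In 14 of those 21 low values the expected number lay within the exact 95% Poisson interval of the count. For the 18 higher values it came to at most 1.57% of the fragments.

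RefSeq promoter windows on GRCm38.p6 were at hand for 4 of the 6 genes, with 7 for Bdnf, 2 for Ntf3 and 1 each for Ntrk2 and Ngfr. The pair below is shown because Bdnf, the ligand detected in these neurons, and Ntrk2, its receptor, reached 1 FPKM in 2 and in 7 neurons. Of the 7 Bdnf windows, the window shown is the only 1 with the letters in capitals, and it does not stand for the other windows. The capitals mark TCACGTCA, a variant of the cyclic AMP response element, whose factor CREB is known to drive Bdnf transcription after neuronal activity.
Bdnf, chr2:109692186-109692435, plus strand: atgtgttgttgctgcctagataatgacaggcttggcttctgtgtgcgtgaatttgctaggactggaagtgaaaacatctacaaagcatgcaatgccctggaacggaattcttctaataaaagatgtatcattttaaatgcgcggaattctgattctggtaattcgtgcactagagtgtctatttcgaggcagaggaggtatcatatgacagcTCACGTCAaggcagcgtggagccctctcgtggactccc
Ntrk2, chr13:58806319-58806568, plus strand: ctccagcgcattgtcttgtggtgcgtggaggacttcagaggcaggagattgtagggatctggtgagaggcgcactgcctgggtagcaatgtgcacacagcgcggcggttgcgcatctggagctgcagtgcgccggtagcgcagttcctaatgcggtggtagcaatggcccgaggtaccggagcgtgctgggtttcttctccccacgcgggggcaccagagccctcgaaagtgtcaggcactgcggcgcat
Searched on both strands, TCACGTCA occurred in 1 of the 7 Bdnf windows and in 0.350% of the 32851 windows of the same 250 bases over 27025 genes. The full element TGACGTCA was in 0 of the 7 Bdnf windows and in 1.55% of all windows, and neither was in the Ntrk2 window. The shorter core CACGTCA, also searched for, was in the same 1 of the 7 Bdnf windows and in 1.65% of all windows. The part of CREB in Bdnf transcription was known before the search, so the match is no independent support for it. The letters CACGTG and GGGCGG, also searched for, were in 0 and 2 of the 7 Bdnf windows and in 6.02% and 32.7% of all windows. The Ntrk2 window had a GC content of 62.8% and 19 CG pairs, and the Bdnf window shown 45.6% and 9. The median of all windows was 52.4% and 6, and the 7 Bdnf windows ran from 39.2% to 59.6% GC. A match describes letters in the window, and the counts per gene do not tell which start site was used.

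Bdnf (ENSMUSG00000048482.14, chr2:109674700-109727007, plus strand of GRCm38) was plainly present in 2 neurons and at or near 0 in the rest. FPKM was 19.2 in sample 9 and 6.64 in sample 8, from 2634 and 1096 fragments. Samples 1, 2, 3, 4 and 10 had no fragment, which allows up to 0.0133 to 0.0226 FPKM, and samples 5 and 6 had 1 and 2 fragments. Sample 7 lay between, with 32 fragments (0.200 FPKM, exact 95% Poisson interval 21.9 to 45.2 fragments) where 1.43 were expected from other libraries. The mean over the 10 neurons was 2.60 ± 6.19 FPKM (SD), and samples 9 and 8 held 99.2% of the summed FPKM. Without sample 9 the mean was 0.761 FPKM. Reaching 1 FPKM in at least 2 neurons was common, with 75.1% of the 16546 genes that reached it in any. The antisense gene Gm45346 shares exonic bases with Bdnf and had 0 fragments in every library. Ntf3 (chr6:126101412-126166910, minus strand), which encodes neurotrophin 3, had no fragment in any of the 10 libraries, a floor of 0.0478 to 0.0818 FPKM.

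**Figure D1:**
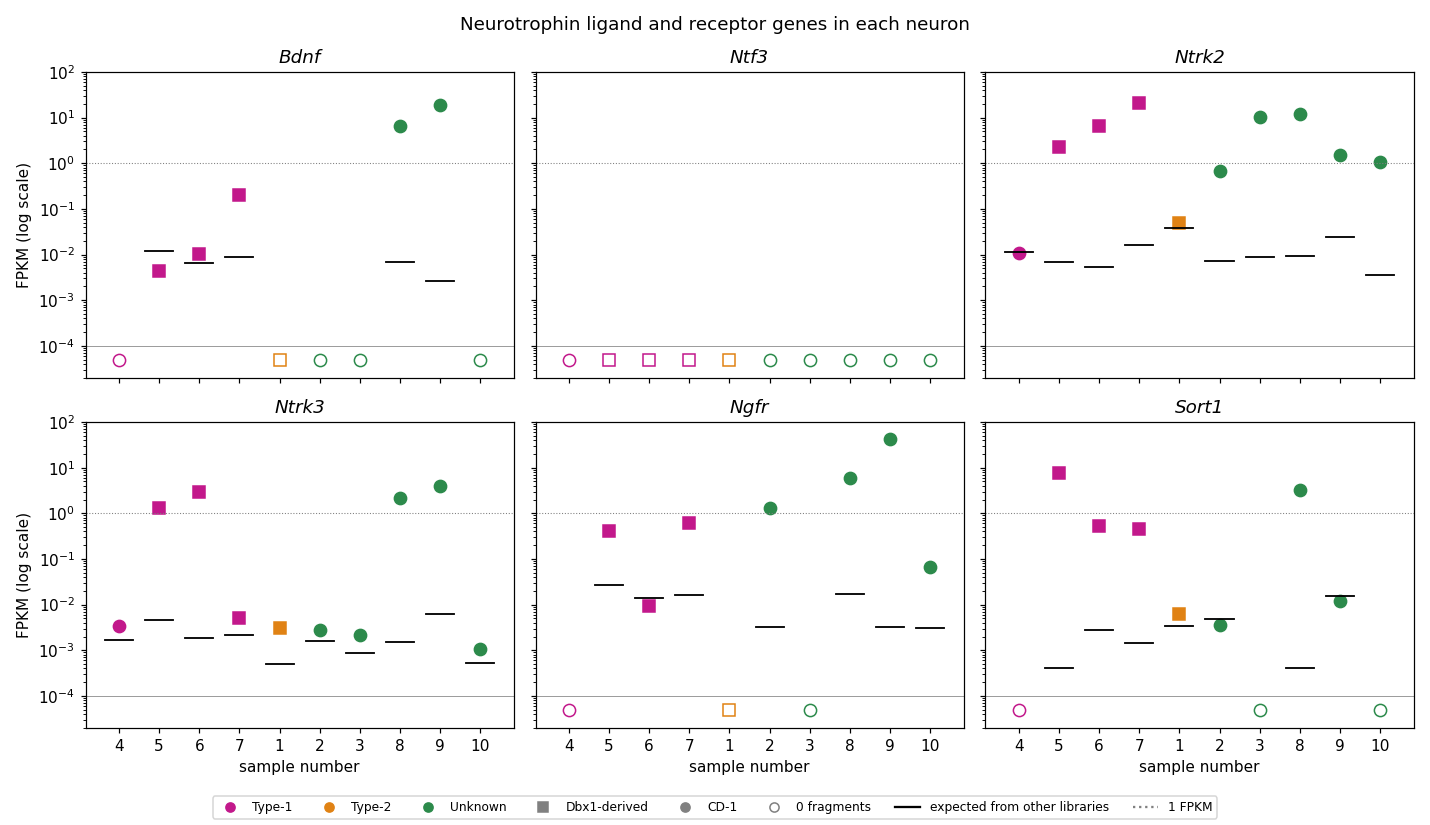
FPKM of each gene (log axis) in each of the 10 neurons, ordered by type, with squares for Dbx1-derived and circles for CD-1 neurons, open points below the grey line for 0 fragments and, for the other points, short lines for the level expected from other libraries. Bdnf reached 6.64 and 19.2 FPKM in samples 8 and 9 alone, whereas Ntrk2 was above 1 FPKM in 7 neurons.

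The TrkB gene Ntrk2 (chr13:58806569-59133970, plus strand) was the most widely detected of the 6. It was highest in the Type-1 samples 7 (21.3 FPKM) and 6 (6.68 FPKM) and the Unknown samples 8 (12.0 FPKM) and 3 (10.3 FPKM). It was lower in samples 5 (2.28 FPKM), 9 (1.54 FPKM), 10 (1.06 FPKM) and 2 (0.662 FPKM). Thus 7 neurons reached 1 FPKM, as 29.9% of detected genes did in at least 7. The lowest values were 0.0485 FPKM in sample 1 and 0.0106 FPKM in sample 4. Their 20 and 6 fragments were close to the 16.1 and 6.60 expected from other libraries, so Ntrk2 was not detectable there above that level. The mean was 5.58 ± 7.03 FPKM (SD, n = 10) and the median 1.91 FPKM.

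Astrocytes also express Ntrk2, mostly as the truncated form without the kinase. Sample 7, with the highest Ntrk2, had 1 of 10 astrocyte markers at 1 FPKM or more, Apoe, and a mean log2(FPKM + 1) of 0.89 over the list. Sample 6 had 2 of 10 and a mean of 0.46, with Gja1 and Gfap at 0. Samples 3 and 8 had 8 and 9 of 10, with means of 4.81 and 4.26, while sample 2 had 8 of 10 and a mean of 4.10 at 0.662 FPKM of Ntrk2. High Ntrk2 was thus found both with and without high astrocyte markers, and the part of those cells in samples 3 and 8 was not tested. The annotation holds 10 transcripts of Ntrk2, 7 of them coding, and the counts per gene do not separate the kinase form from truncated ones.

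**Figure D2:**
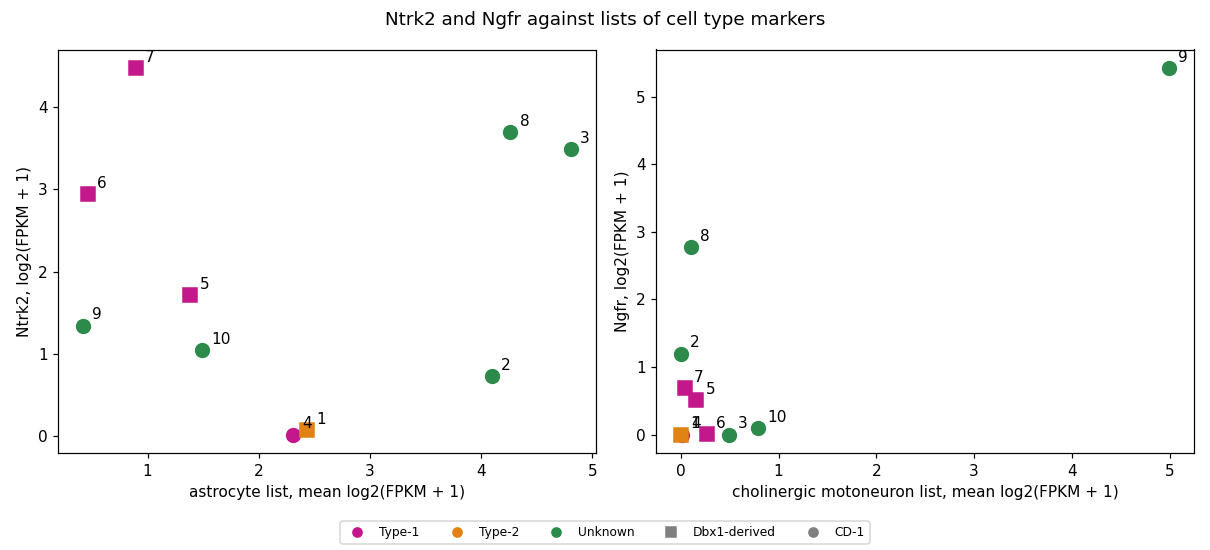
Left, Ntrk2 against the mean of the astrocyte markers, and right, Ngfr against the mean of the cholinergic motoneuron markers, both axes in log2(FPKM + 1), 1 point per neuron with its sample number. Sample 7 combined the highest Ntrk2 with an astrocyte mean of 0.89, and sample 9 the highest Ngfr with a motoneuron mean of 4.99.

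Ntrk3 (chr7:78175959-78738012, minus strand), the TrkC gene, split the neurons into a detected and an undetected set. Its FPKM was 4.05, 2.89, 2.14 and 1.28 in samples 9, 6, 8 and 5, from 1417 to 2746 fragments. The other 6 neurons had 1 to 4 fragments, each with the number expected from other libraries inside its interval. Sample 7, the highest for Ntrk2, was among them with 4 fragments (0.00516 FPKM). Every neuron at 1 FPKM of Ntrk3 also reached 1 FPKM of Ntrk2, and 3 neurons reached it for Ntrk2 without Ntrk3. The mean was 1.04 ± 1.50 FPKM (SD, n = 10), and 53.7% of detected genes reached 1 FPKM in at least 4 neurons.

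The length behind FPKM is that of all exons of a gene, 30170 bases for Ntrk3 and 19292 for Ntrk2, which lowers their values against genes of compact models. With the length of the transcript of longest coding sequence, an alternative added after the data were seen, mean Ntrk3 was 11.3 and mean Ntrk2 12.3 FPKM. On that scale the mean levels were 4.15 FPKM for Bdnf, 5.03 FPKM for Ngfr and 1.30 FPKM for Sort1. Ntrk3 therefore moved from the lowest mean of the 5 detected genes to the second highest. That scale still used the fragments of all exons, while the Ntrk3 transcript has 2774 bases, 2592 of them coding. It can therefore overstate Ntrk3, and the order of the means depends on the length chosen.

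Ngfr (chr11:95568818-95587735, minus strand), the p75 gene, was dominated by 1 neuron. Its FPKM was 42.1, 5.87 and 1.30 in samples 9, 8 and 2. Samples 7 (0.610 FPKM), 5 (0.420 FPKM) and 10 (0.0666 FPKM) had 54, 53 and 7 fragments where 1.46, 3.40 and 0.321 were expected from other libraries. Sample 6 had 1 fragment, and samples 1, 3 and 4 had 0. Sample 9 held 83.6% of the summed FPKM, so the mean of 5.03 ± 13.1 FPKM (SD, n = 10) was 0.919 FPKM without it. The 3 neurons at 1 FPKM were all of Unknown type, and 63.0% of detected genes reached that level in at least 3 neurons.

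Sample 9, the highest for Bdnf, Ntrk3 and Ngfr, also held 5 of 6 cholinergic motoneuron markers at 1 FPKM or more, with a mean log2(FPKM + 1) of 4.99 against 0 to 0.79 in the others. Slc18a3, the vesicular acetylcholine transporter, was at 444 FPKM there, Isl1 at 38.1 FPKM and Chat at 1.80 FPKM, and Mnx1 was at 0. Of the sensory ganglion markers, Avil (32.3 FPKM) and Pou4f1 (1.25 FPKM) were present in sample 9, while Trpv1, Scn10a, P2rx3 and Prdm12 were at 0. The Schwann cell gene Erbb3 was at 0 in all 10 neurons. The part of the cell's identity in the values of sample 9 was not tested. Leaving it out left Bdnf at 1 FPKM in sample 8 alone, Ngfr in samples 2 and 8, and Ntrk3 in samples 5, 6 and 8.

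Sort1 (chr3:108284082-108361511, plus strand), the sortilin gene, was at 7.54 FPKM in sample 5 and 3.21 FPKM in sample 8. Samples 6 (0.516 FPKM) and 7 (0.463 FPKM) had 123 and 90 fragments, well above the 0.674 and 0.286 expected from other libraries. Samples 1, 2 and 9 had 1, 1 and 2 fragments, and samples 3, 4 and 10 had 0. The mean was 1.17 ± 2.44 FPKM (SD, n = 10), or 0.468 FPKM without sample 5. Sample 9, with the most Bdnf and Ngfr, thus had almost no Sort1 at 0.0120 FPKM. The antisense gene Gm12523 shares exonic bases with Sort1 and had 6 fragments in all, and the counting is not stated to use strand.

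Sample 8 was the neuron with the broadest set, with Bdnf, Ntrk2, Ntrk3, Ngfr and Sort1 all at 1 FPKM or more. Sample 9 had 4 of them, sample 5 had 3, sample 6 had 2, and samples 2, 3, 7 and 10 had 1 each. Samples 1 and 4 had 0. Both neurons with Bdnf also held Ntrk2, Ntrk3 and Ngfr, and 5 neurons held Ntrk2 without Bdnf. At 1 FPKM or more, sample 8 also had 9 of 10 astrocyte, 6 of 8 microglia and 4 of 8 oligodendrocyte lineage markers. The part of such cells in its Bdnf and receptor values was not tested. Libraries with more genes tended to hold more of the set, with sample 8 at 9307 genes and samples 1 and 4 at 5065 and 6795. The order was not the same throughout, since sample 10 had 9222 genes and 1 of the 6, and sample 9 had 6632 genes and 4.

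**Figure D3:**
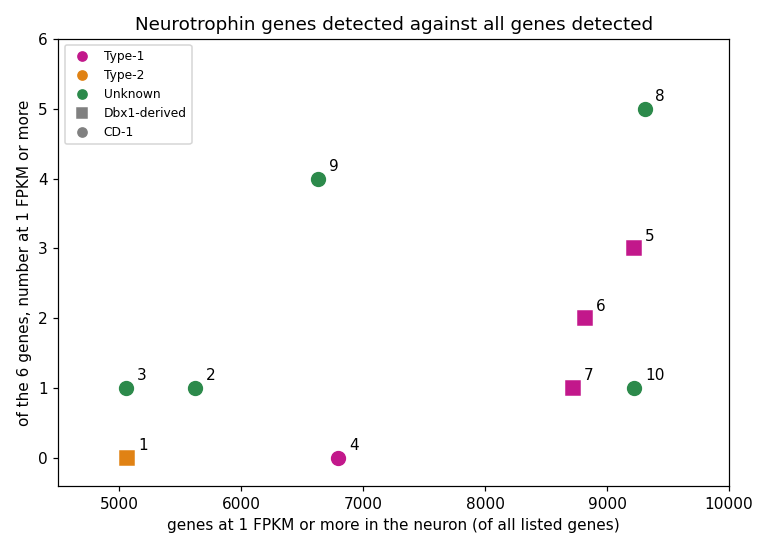
Number of the 6 genes at 1 FPKM or more against the number of all genes at 1 FPKM or more in each neuron, labelled with sample numbers. Sample 9 held 4 of the 6 with 6632 genes, and sample 10 held 1 with 9222.

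In the 4 neurons with over 100 FPKM of Slc17a6, the vesicular glutamate transporter (samples 5, 6, 7 and 8), Ntrk2 was at 1 FPKM or more in all 4. Ntrk3 reached that level in samples 5, 6 and 8, Sort1 in samples 5 and 8, and Bdnf and Ngfr in sample 8 alone. Of these neurons, sample 7 also had 5.14 FPKM of Gad2, and sample 8 had 8.28 FPKM of Gad1. The 4 libraries held 8720 to 9307 genes at 1 FPKM or more. The share of all genes at that level in all 4 was not counted, so no glutamatergic trait is read from this. Samples 1 and 10, with 3 of 4 GABAergic or glycinergic markers, had 0.0485 and 1.06 FPKM of Ntrk2 and neither Bdnf nor Ntrk3 above the level of other libraries. Sample 3, with 2 of the 4 markers (37.2 FPKM of Gad1 and 22.9 FPKM of Gad2), had 10.3 FPKM of Ntrk2, so inhibitory markers went with low and high values.

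For the comparison of neuron types, none of the 6 genes separated Type-1 from Unknown neurons. Bdnf was 0, 0.00439, 0.0102 and 0.200 FPKM for samples 4, 5, 6 and 7, the Type-1 neurons, and 0, 0, 6.64, 19.2 and 0 FPKM for the Unknown neurons, samples 2, 3, 8, 9 and 10. Mean Bdnf was 0.0538 ± 0.0979 (SD, n = 4) against 5.17 ± 8.35 FPKM (SD, n = 5), and the groups overlapped at 0. Ngfr had a mean of 0.260 ± 0.305 FPKM in Type-1 and 9.86 ± 18.2 FPKM in Unknown neurons. For both genes the higher mean came from samples 8 and 9, and 3 of the 5 Unknown neurons had no Bdnf. Mean Ntrk2 was 7.57 ± 9.57 FPKM in Type-1 and 5.10 ± 5.54 FPKM in Unknown neurons. Mean Ntrk3 was 1.05 ± 1.37 and 1.24 ± 1.82 FPKM, and mean Sort1 was 2.13 ± 3.61 and 0.645 ± 1.43 FPKM. Between these groups 0 of the 6 genes had values that did not overlap, against 0.973% of the 16546 genes tested. Ntf3, at 0 throughout, could not separate the groups and is not among those 16546 genes. Beside so small a share, 0 of 6 says little about the set, and the same holds for the further counts of this kind below. The Type-2 neuron had no Bdnf or Ngfr fragment and 0.0485 FPKM of Ntrk2.

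As the difference in mean log2(FPKM + 1), Type-1 minus Unknown, Bdnf was -1.38, Ngfr -1.60, Sort1 0.64, Ntrk2 0.23 and Ntrk3 -0.01. The SD pooled within the groups was 1.55, 1.73, 1.14, 1.64 and 1.05, so each difference was smaller than the spread between neurons. Without sample 4, the library with few neuronal transcripts, Ntrk2 was 0.98 higher and Sort1 1.00 higher in Type-1 neurons, Ntrk3 was 0.25 higher, and the values of 0 of the 6 genes ceased to overlap, against 4.18% of all genes.

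The mouse lines, which share most neurons with the types, were taken from the labels of the samples. The study's text gives the same split by type, with 3 of the 4 Type-1 neurons and the Type-2 neuron Dbx1-derived and the rest CD-1. Figure legends of the study instead place samples 1 to 6 in CD-1 and 7 to 10 in Dbx1;Ai148 mice. That departs from its text and would change every value of this comparison. Mean Bdnf was 0.0538 ± 0.0979 FPKM in the 4 Dbx1-derived neurons and 4.31 ± 7.76 FPKM in the 6 CD-1 neurons. Mean Ntrk2 was 7.58 ± 9.56 against 4.25 ± 5.37 FPKM and mean Sort1 2.13 ± 3.61 against 0.537 ± 1.31 FPKM. Mean Ngfr was 0.260 ± 0.305 against 8.22 ± 16.7 FPKM and mean Ntrk3 1.05 ± 1.37 against 1.03 ± 1.71 FPKM. On the log2(FPKM + 1) scale, Dbx1-derived minus CD-1, the differences were -1.14 for Bdnf, 0.58 for Ntrk2, 0.12 for Ntrk3, -1.28 for Ngfr and 0.71 for Sort1. All lay within the pooled SD of 1.53, 1.66, 1.02, 1.73 and 1.08. Again 0 of the 6 genes had values that did not overlap, where 1.83% of all genes did, and without sample 4 it was 0 of 6 and 2.23%. Without samples 1 to 4 both comparisons come down to samples 5, 6 and 7 against 8, 9 and 10. The differences were then -2.33 for Bdnf, -2.36 for Ngfr, 1.02 for Ntrk2, -0.28 for Ntrk3 and 0.72 for Sort1, and 0 of the 6 genes had values that did not overlap, against 8.04% of all genes. Without sample 9 alone, Type-1 minus Unknown was -0.66 for Bdnf and -0.72 for Ngfr.

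By age, high and low neurons were found at the same day. At P0 the Ntrk2 values were 0.0485, 2.28, 10.3 and 12.0 FPKM (samples 1, 5, 3 and 8), and at P3 they were 0.0106, 6.68 and 21.3 FPKM (samples 4, 6 and 7). Bdnf was detected in 1 of 4 neurons at P0 and 1 of 2 at P2 at 1 FPKM or more, and in neither the P1 neuron nor the 3 at P3.

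A list of 62 other genes of the pathway was read by role. Of these, 37 (against 13.6% of all listed genes) reached 1 FPKM in at least 5 neurons, and 13 (against 4.59%) in at least 9. Those shares take in many genes never at 1 FPKM. Only 16546 of the 55367 listed genes reached it in any neuron, against 56 of the 62. Of those 16546 genes, 7530 passed in at least 5 neurons and 2541 in at least 9. Ntf5, the gene of the second TrkB ligand, neurotrophin 4, had no fragment in any neuron. Bdnf was thus the only one of Bdnf, Ntf3 and Ntf5 with a fragment in these libraries.

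Among the other receptors of the sortilin family, 1 of 4 was at 1 FPKM in at least 5 neurons. This was Sorl1, at 9.49 ± 16.8 FPKM (SD, n = 10) with 54.1 FPKM in sample 1, a neuron with 1 fragment of Sort1. Sorcs3 reached 29.6 FPKM in sample 2 and stayed below 1 FPKM in the other 9. Of 8 partners of p75, 5 passed in at least 5 neurons, led by Bex3 (556 ± 245 FPKM), Maged1 (310 ± 158 FPKM) and Arhgdia (147 ± 63.7 FPKM). Bex3 was at 261 FPKM or more in every neuron, including the 3 without an Ngfr fragment.

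Of 12 genes for the processing and release of neurotrophins, 3 were at 1 FPKM in at least 5 neurons. Cpe, carboxypeptidase E, which acts in the sorting and trimming of secreted precursors, was at 382 ± 305 FPKM and never below 24.3 FPKM. Pcsk2, a prohormone convertase, ran from 0.00697 to 59.1 FPKM. Pcsk6, Plg and Mmp7 had no fragment.

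At the limit of 5 neurons, the signalling genes below the Trk receptors were the most widely detected. Of 16 adaptors 12 passed in at least 5 neurons, led by Crk (30.5 ± 25.9 FPKM) and Frs3 (26.4 ± 19.95 FPKM), and Grb2 (20.5 ± 11.6 FPKM) in at least 9. Of 15 kinases and GTPases 14 did so, led by Hras (66.5 ± 31.3 FPKM) and Map2k2 (53.5 ± 39.1 FPKM). Akt1 (44.6 ± 37.7 FPKM), Mapk3 (34.2 ± 26.4 FPKM) and Pdpk1 (7.53 ± 4.48 FPKM) were at 1 FPKM in at least 9 neurons. Sample 4, with 6 fragments of Ntrk2, and sample 1, with 20, held 28 (45.2%) and 26 (41.9%) of the 62 genes. Of the 16546 genes that reached 1 FPKM in any neuron, samples 4 and 1 held 41.1% and 30.6%. The bases are unlike, since 6 of the 62 genes never reached 1 FPKM. Of 4 genes of transcription 2 passed in at least 5 neurons, with Crtc1 (5.07 ± 8.68 FPKM) the highest.

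**Figure D4:**
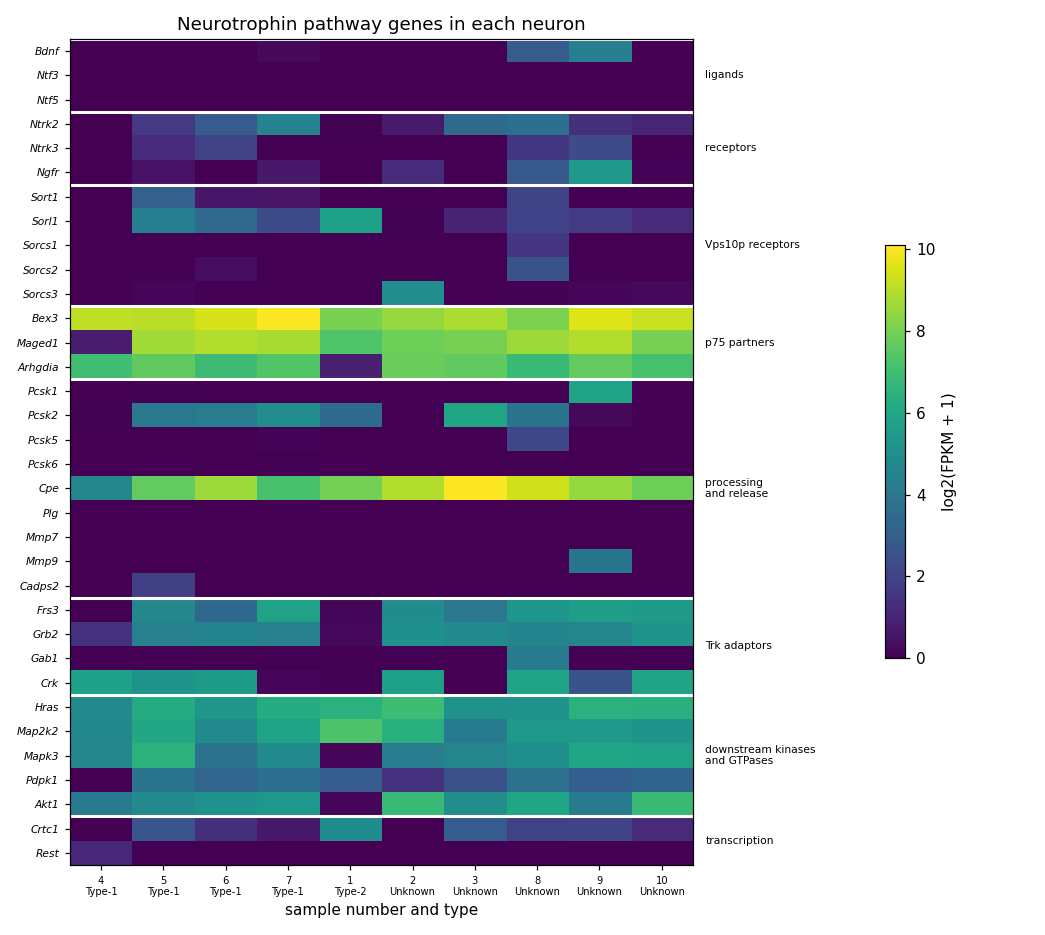
The 6 genes and the others of the pathway that are named in the text (rows, by role) in each neuron (columns, by type), coloured by log2(FPKM + 1). Bdnf was below 1 FPKM in 8 neurons and Ntrk3 in 6, while Bex3 was at 261 FPKM or more and Cpe at 24.3 FPKM or more in every neuron.

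Across the 10 neurons, the genes whose order of FPKM was most like that of Ntrk2 were Phkg2 and Camk4 (both Spearman's rho 0.939) and Cox19 (0.927), of 7529 genes compared. For Ntrk3 they were Erfl, Zfp804b and Cadm1 (all 0.964), and for Ngfr Gars (0.951), Dzip3 and Mpnd (both 0.939), of 7530. These are descriptions over 10 points of unequal depth and gene number, picked as the highest of all compared, and by Pearson's r on log2(FPKM + 1) the nearest 3 were other genes in each case.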

How the data were processed

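RNA of single neurons was amplified with a SMART-Seq kit and sequenced as read pairs. The authors trimmed reads with bbduk, aligned them with STAR 2.7.7a (FastQC 0.11.8 is also in the submitters' processing notes) to GRCm38 and counted fragments with featureCounts. They deposited raw counts per gene, with no normalization, gene lengths, and FPKM, which recomputed from those counts and lengths to within 5.09e-11.

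From these, FPKM was used as deposited, with exact 95% Poisson intervals of the counts and a floor of 3 counts. Fragments expected from other libraries used rates on genes nearly private to a library (1000 counts or more there, no other above 2% of that), trimming the top 5%. The setting of these rates came from earlier work that chose it after seeing values. The script was tested on simulated data from which small true counts had been removed. That simulation could not show real low expression being counted as transfer. TPM, other limits and pseudocounts, and leaving out neurons were alternatives. The 6 genes and all lists were chosen with earlier results of these data known. No test was made, since each sample is 1 neuron with no animal named.

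Named were the 6 genes, the 2 of each role with the highest mean, listed genes at 1 FPKM in at least 9 neurons, and the 3 nearest by Spearman's rho to a gene at 1 FPKM in at least 3 neurons, among genes at 1 FPKM in at least 5. Some genes that the rule or the lists hold are not reported here. Genes outside this rule were named after their values were seen. Marker lists were for neurons, glutamatergic and GABAergic or glycinergic neurons, astrocytes, the oligodendrocyte lineage (at most 4 of 8 genes at 1 FPKM in any neuron), microglia, endothelial (at most 1 of 6), mural (0 of 5) and fibroblast cells (at most 1 of 5), cholinergic motoneurons, sensory ganglion neurons and Schwann cells. Positions are from GENCODE M21 on GRCm38. Scripts ran on Python 3.11.15 with SciPy 1.17.1, NumPy 2.4.6, Matplotlib 3.10.9 and pandas 2.3.3.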

Additional observations from a re-analysis of the deposited data

Results flagged for a closer look

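In 30 groups of 4 to 10 neurons, 5 had a highest neuron far from the next by Dixon's criterion on log2(FPKM + 1). Chance gives this in about 1 of 20 groups of normally distributed values, a rate that cannot be applied closely here, since 5 of the groups were Ntf3 at 0 throughout and many others held mostly zeros. Bdnf in sample 7 stood apart among both the Type-1 and the Dbx1-derived neurons, at 0.200 FPKM where the next was 0.0102 FPKM. Ngfr in sample 9, at 42.1 FPKM, stood apart from all other neurons, of which the next was 5.87 FPKM. Sort1 in sample 8, at 3.21 FPKM, stood apart among both the Unknown and the CD-1 neurons, where the next was 0.0120 FPKM. Several of these groups share the same neurons.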

How the results depend on the processing

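No paired analysis was possible because no test was made and the labels give the groups no shared replicate numbers. With a limit of 10 in place of 1 FPKM, Bdnf was found in 1 neuron, Ntrk2 in 3, Ntrk3 in 0, Ngfr in 1 and Sort1 in 0, and 19 of the other pathway genes, in place of 37, passed in at least 5. With a limit of 0.1 FPKM, or 1 TPM, Ngfr was found in 5 neurons and Sort1 in 4. Mean TPM was 14.4 for Ntrk2 and 2.57 for Ntrk3, and with the transcript length mean Ntrk3 was 11.3 FPKM. With a pseudocount of 0.1, Type-1 minus Unknown turned to -0.18 for Ntrk2 and 0.21 for Ntrk3 (0.22 in TPM), and Sort1 was 1.79, and 1.99 for Dbx1-derived minus CD-1. Leaving out 1 neuron at a time, Type-1 minus Unknown ran from -0.50 to 0.98 for Ntrk2, -0.40 to 0.38 for Ntrk3 and -0.036 to 1.06 for Sort1 (negative without sample 5). Dbx1-derived minus CD-1 ran from -0.15 to 1.32 for Ntrk2 and -0.27 to 0.46 for Ntrk3. For Bdnf the ranges were -1.75 to -0.66 and -1.38 to -0.52, and for Ngfr -2.07 to -0.72 and -1.60 to -0.51, each nearest 0 without sample 9. Sort1, Dbx1-derived minus CD-1, ran from 0.037 (without sample 5) to 1.07. With samples 1 to 4 left out, chosen after the data were seen, Dbx1-derived minus CD-1 turned to -0.28 for Ntrk3, and 41 of the other pathway genes passed in at least 3 of 6 neurons. Over the 5 detected genes, 80 of 95 differences with 1 neuron left out and 36 of 40 under other settings kept their sign. The SD exceeds the mean for all 5, so means that moved by less than the SD say little about stability. The cause of these shifts was not tested. The 12 values of 4 fragments or fewer cannot be told apart from fragments of other libraries.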

Other observations

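Of the 62 other pathway genes, 56 reached 1 FPKM in some neuron, and 10 of them (17.9%) did so in 1 neuron alone, where 24.9% of the 16546 detected genes did. Named after their values were seen, Sorcs1, Sorcs2, Pcsk5 and Gab1 were in sample 8, and Pcsk1 and Mmp9 were in sample 9. Sample 8 had the most genes at 1 FPKM or more of all neurons, 9307, and sample 9 had 6632. How all genes found in 1 neuron alone divide among the neurons was not counted, so no tie to Bdnf is read from this. Pcsk1, a prohormone convertase of neuroendocrine cells, was at 54.9 FPKM in sample 9, and Mmp9, a secreted protease, at 13.9 FPKM. In sample 8, Sorcs2, a receptor of the sortilin family, was at 5.09 FPKM and Gab1, a docking protein of receptor kinases, at 17.3 FPKM. Of the rest, Sorcs3 was in sample 2, Rest, a repressor of neuronal genes, at 1.26 FPKM in sample 4, and Cadps2, a factor of secretory vesicle release, at 2.78 FPKM in sample 5.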
